A study of Drosophila melanogaster with 15 samples.

Results

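The 2 knockdown libraries of SL2 cells, MSL2 RNAi and CLAMP RNAi, were compared gene by gene, with the control library left out of the ratio. Of 15139 genes in the deposited files, 7485 averaged 1 RPKM or more across the 3 mRNA libraries and entered the comparison. RPKM is the read count of a transcript scaled by its length and by the size of the library. Each gene was represented by the transcript with the most reads, and its value is the log2 ratio of RPKM plus 0.1, MSL2 RNAi over CLAMP RNAi. A negative value means a lower level after MSL2 RNAi than after CLAMP RNAi.

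SL2 is a male Drosophila melanogaster cell line of embryonic origin that resembles blood cells. All cells had received double-stranded RNA for 6 days at 25 °C. The series holds 15 samples, of which 3 are mRNA libraries, 1 each for the control, CLAMP and MSL2 double-stranded RNAs. The labels do not name the target of the control RNAi and do not report protein levels. With 1 library a side there was no test and no replicate error. "Higher" and "lower" therefore describe these libraries, and the 95% intervals given for read ratios are exact Clopper-Pearson intervals that cover counting error only.

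In male flies, the MSL complex binds the single X chromosome and acetylates histone H4 along active genes, which raises X-linked transcription toward the output of both female X chromosomes. MSL2 is the RING finger subunit whose presence limits the complex to males, and the noncoding roX RNAs are part of the complex. CLAMP is a zinc finger protein that binds GA-rich sequences genome-wide, including the sites at which the MSL complex enters the X, and it also binds many autosomal promoters.

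The library totals were 68301197 for CLAMP RNAi, 67844405 for MSL2 RNAi and 68036170 for control, so depth was nearly equal. Each target was lower in its own library. Clamp stood at 66.2, 19.8 and 66.9 RPKM in the control, CLAMP RNAi and MSL2 RNAi libraries. The msl-2 gene stood at 19.8, 19.4 and 5.16 RPKM in that order. The direct ratio, MSL2 RNAi over CLAMP RNAi, was 3.37 for Clamp (95% interval 3.25 to 3.50) and 0.267 for msl-2 (0.251 to 0.283). Reads of both targets remained in their own knockdown library.

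X-linked genes were lower after MSL2 RNAi than after CLAMP RNAi as a group. Over 1292 X-linked genes the log2 ratios had a median of −0.27 (quartiles −0.41 and −0.12), compared with 0.08 over 6062 genes of arms 2L, 2R, 3L and 3R (quartiles −0.05 and 0.20). The X median was thus lower (difference −0.35), at 0.783 times the autosomal one, and 1165 X-linked genes (90.2%) were under the autosomal median. The medians of the 4 autosomal arms ran from 0.06 to 0.10, so none of them stood near the X. X-linked genes held 17.2% of the reads of the chosen transcripts after CLAMP RNAi and 14.4% after MSL2 RNAi, beside 17.5% in control.

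**Figure D1:**
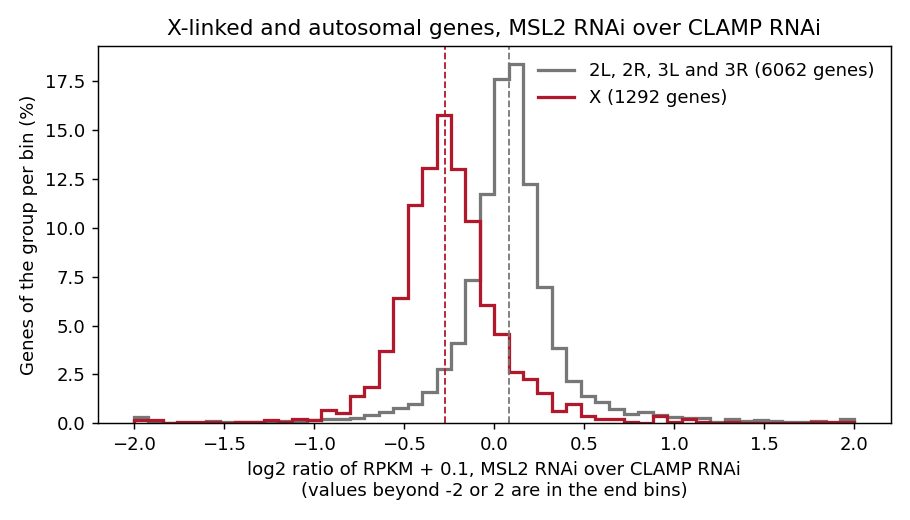
Share of genes per bin of the log2 ratio of RPKM plus 0.1, MSL2 RNAi over CLAMP RNAi, for X-linked genes and for genes of arms 2L, 2R, 3L and 3R, with 1 library a side and dashed lines at the medians. The X distribution is displaced as a whole, with medians of −0.27 and 0.08.

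The displacement ran through all levels, lengths and stretches examined. In deciles of expression level the X lay below the autosomes by −0.32 to −0.43 on the log2 scale, and in quintiles of transcript length by −0.34 to −0.37. The −0.43 was that of the lowest decile, where the X median was −0.18 and the autosomal median 0.25. With the X cut into 20 consecutive stretches of 64 or 65 compared genes, the stretch medians ran from −0.37 to −0.15. All 20 were below the autosomal median. The lowest stretch ran from sd to Traf-like and the highest from moon to up, and gene order was taken from the Release 6 annotation.

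**Figure D2:**
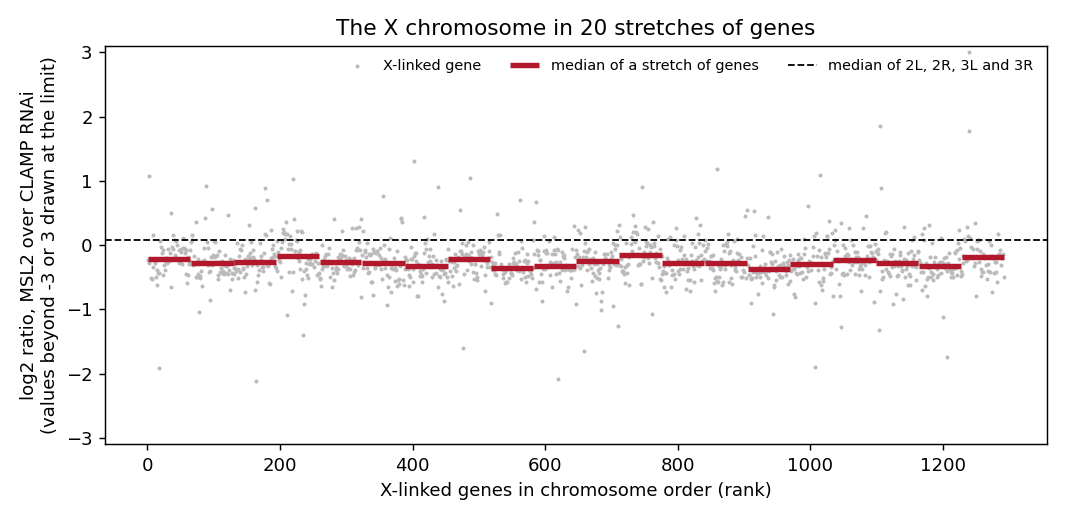
Log2 ratio of each X-linked gene, MSL2 RNAi over CLAMP RNAi, by its rank along the chromosome, with the median of each of 20 stretches as a bar and the autosomal median as a dashed line. The bars lie between −0.37 and −0.15, with no stretch at the autosomal level.

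Single genes were counted by their distance from equality between the knockdowns, so the X-wide displacement enters these counts. At least 2-fold lower after MSL2 RNAi were 17 X-linked genes, or 1.32%, and at least 2-fold higher were 9, or 0.697%. At 1.5-fold the shares were 7.89% lower and 1.47% higher. On the major autosomal arms the shares leaned the other way, at 2.71% lower and 4.83% higher for 1.5-fold and 1.07% and 1.88% for 2-fold.

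The 6 lowest X-linked genes averaging 5 RPKM or more were Mct1, Vago, arg, CG4829, CG34331 and roX1. roX1 stood at 303, 270 and 102 RPKM in control, CLAMP RNAi and MSL2 RNAi, a log2 ratio of −1.41 between the knockdowns. The other roX RNA, roX2, had 684, 463 and 140 reads and a log2 ratio of −1.66. Both roX RNAs were thus lower after either knockdown, and by more after MSL2 RNAi. Vago, a gene of the antiviral response, had 711, 534 and 121 reads and showed the same order. CG34331 had 98, 564 and 164 reads, so both knockdown libraries were above control and the CLAMP RNAi library by more.

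At the same level of 5 RPKM or more, the highest X-linked genes were CG6891 (log2 ratio 1.85), CG11655 (1.18), wus (1.09), CG15347 (1.04), CG14780 (0.91) and MFS10 (0.91). They came from different sides. CG6891 had 20167, 4691 and 16800 reads. CG11655 with 5803, 2047 and 4631 reads and MFS10, a gene of the major facilitator transporter family, with 8017, 4242 and 7912 followed that pattern of a low CLAMP RNAi library. CG15347, with 5217, 1613 and 3302 reads, was lowest in that library but was also low after MSL2 RNAi, at a log2 ratio of −0.65 to control. By contrast, wus, which encodes a membrane protein with a DnaJ domain, had 1405, 1064 and 2260 reads, and CG14780 had 406, 369 and 697, with the MSL2 RNAi library above control.

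The proteins of the MSL complex other than MSL2 had nearly equal transcript levels in the 2 knockdowns. The ratio of reads, MSL2 RNAi over CLAMP RNAi, was 1.08 for the scaffold gene msl-1 (95% interval 1.04 to 1.11), 1.17 for msl-3 (1.10 to 1.24), 1.09 for the helicase gene mle (1.05 to 1.13) and 0.971 for the histone acetyltransferase gene mof (0.923 to 1.02). Only mof of these is X-linked.

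The small chromosome 4, which carries its own chromosome-wide binding protein, was compared in the same way. Its 57 genes had a median log2 ratio of 0.01 between the knockdown libraries, 0.07 below the autosomes, and 44 of them (77.2%) lay below the autosomal median. Against the shared control library, the chromosome 4 median was −0.34 in each knockdown. No chromosome 4 gene differed 2-fold between the knockdowns, while at 1.5-fold 1 was lower and 1 was higher (1.75% each).

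Over all chromosomes, the level after MSL2 RNAi was lower than that after CLAMP RNAi by 2-fold or more for 83 genes (1.11%) and 2-fold or more above it for 124 (1.66%). The control library, used here only to place the values, shows which knockdown stood apart. Of the 83 lower genes, 27 were at least 1.5-fold above control after CLAMP RNAi alone, 32 were at least 1.5-fold below control after MSL2 RNAi alone, 23 met both and 1 met neither. Of the 124 higher genes, 65 were below control after CLAMP RNAi alone, 43 above control after MSL2 RNAi alone, 14 met both and 2 met neither. As background, 3.86% of all genes were 1.5-fold below and 1.5% above control after CLAMP RNAi, and 5.32% and 2.53% after MSL2 RNAi. Both knockdown ratios share the 1 control library, so the sides are a description. The median of the mean level was 2.83 RPKM for the higher genes and 6.15 RPKM for the lower ones. With the floor raised to 5 RPKM the 2-fold counts were 46 lower (0.715%) and 43 higher (0.668%).

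**Figure D3:**
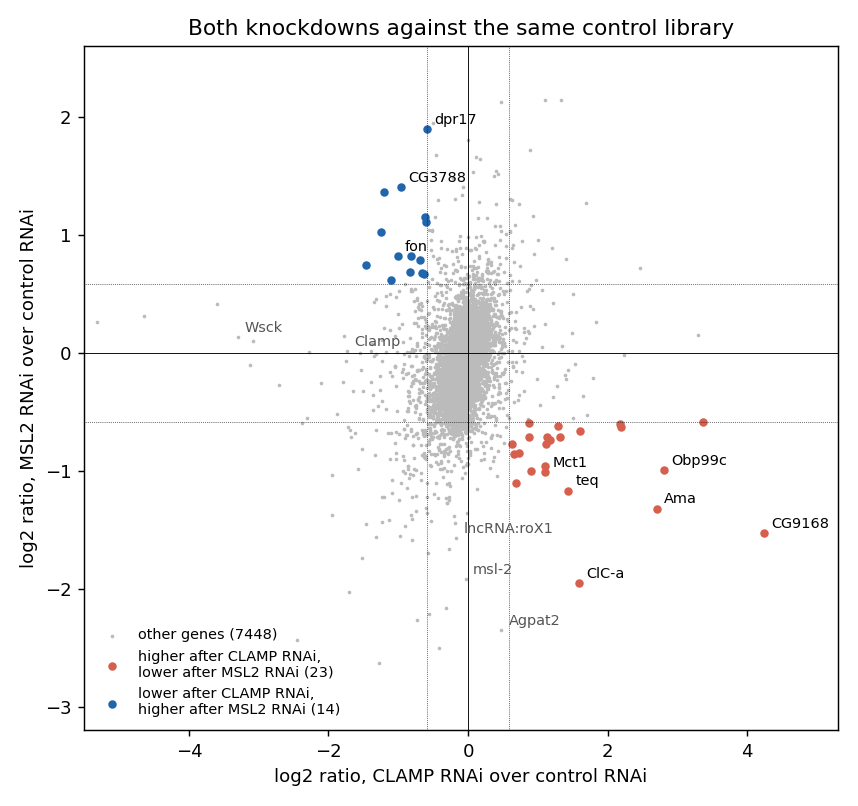
Log2 ratio to control after CLAMP RNAi (x axis) and after MSL2 RNAi (y axis) for the 7485 genes compared, both against the same control library, with dotted lines at 1.5-fold. Coloured points are the 23 genes above control after CLAMP RNAi and below it after MSL2 RNAi, at the lower right, and the 14 genes with the reverse order, at the upper left.

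Genes that the knockdowns placed on opposite sides of control, each by at least 1.5-fold, numbered 23 with a higher level after CLAMP RNAi and a lower one after MSL2 RNAi (0.307% of genes compared), and 14 with the reverse order (0.187%). In 974 of all 7485 genes compared, the counting intervals of both ratios to control lay clear of equality, on opposite sides. The same held for 22 of the 23 and 13 of the 14. These genes were chosen by their distance from control, so that outcome adds little. The exceptions were CG13791, with 22, 37 and 9 reads in control, CLAMP RNAi and MSL2 RNAi, and snoRNA:Me28S-A771, with 7, 3 and 11. The counts below refer to the libraries in this order.

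The widest split in genes averaging 5 RPKM or more was that of Ama on arm 3R, which encodes Amalgam, a secreted immunoglobulin-family protein that binds the membrane protein Neurotactin. Ama had 670, 4432 and 261 reads. The CLAMP RNAi level was 16.9-fold the MSL2 RNAi level (95% interval 14.9 to 19.2). The 3 deposited Ama transcripts gave log2 ratios between −4.02 and −4.01. The neighbouring compared genes, agt and CG1105, stood at 0.18 and 0.19, so the split did not extend to them.

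ClC-a, a chloride channel gene on 3R, had 1027, 3171 and 244 reads, a 12.9-fold difference between the knockdowns (11.3 to 14.8). Its log2 ratio to control after MSL2 RNAi was −1.96. Tequila (teq), a secreted serine protease gene on 3L, had 2693, 7427 and 1162 reads, a 6.35-fold difference (5.97 to 6.76). For ClC-a and teq, the transcripts compared gave log2 ratios of −3.56 to −3.48 and −2.61 to −2.51.

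Mct1, an X-linked monocarboxylate transporter gene, had many more reads. Mct1 had 7485, 16154 and 3689 reads, a 4.35-fold difference (4.20 to 4.51). Its log2 ratio to control after MSL2 RNAi, −1.01, was well below the X-wide median of −0.33 in that comparison. CG3457, its neighbour in gene order, stood on the other side, at 0.58 between the knockdowns, just short of 1.5-fold. Ama, ClC-a, teq and Mct1 were the genes of this mean level that were at least 2-fold from control on both sides.

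Both other X-linked genes of this mean level kept the same order. CG4829 stood at 109, 238 and 63.8 RPKM, a 3.73-fold difference between the knockdowns (3.66 to 3.81). The arginase gene arg had 576, 1429 and 371 reads, a 3.83-fold difference (3.41 to 4.30). After MSL2 RNAi they stood at −0.78 and −0.62 relative to control, nearer than Mct1 to the X-wide median.

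The autosomal genes of the group covered several functions. Reck, whose mammalian counterpart inhibits matrix metalloproteases, had 2736, 5158 and 1348 reads and a log2 ratio of −1.90 between the knockdowns. Gbp1, which encodes a growth-blocking peptide cytokine, had 127, 395 and 79 reads. Its neighbour CG11400, on 2R, had 576, 962 and 316, so both of these adjacent genes were in the group, at −2.27 and −1.58. CG4970 had 393, 1864 and 248 reads; 1 of its transcripts carries the same read counts as the gene model CG14929, so these 2 models are not separate observations. CG33307 (log2 ratio −1.51), CG34305 (−1.85) and CG32030 (−1.40) completed the group at this level, and the current annotation assigns CG32030 to the formin gene Fhos. With a pseudocount of 1 in place of 0.1, arg, Gbp1, CG4970 and CG32030 no longer met the 1.5-fold rule on both sides.

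**Figure D4:**
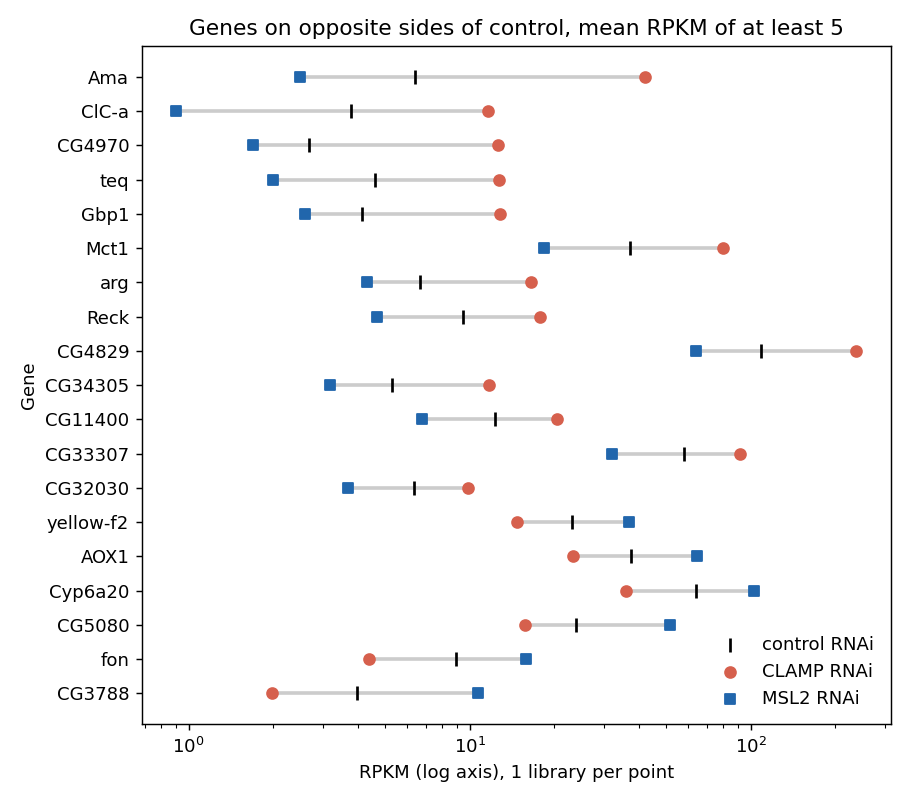
RPKM on a log axis of the genes on opposite sides of control that averaged 5 RPKM or more, with 1 library per point and a grey line joining the knockdown libraries. The 13 upper genes have CLAMP RNAi on the right and MSL2 RNAi on the left of control, and the 6 lower genes have the reverse, with the widest span for Ama, 16.9-fold between the knockdowns.

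Genes under that level are named here after their values were seen. CG9168 had 58, 1325 and 12 reads, the lowest ratio of all genes compared at −5.78. Obp99c, an odorant-binding protein gene, had 66, 488 and 31 reads, and its neighbour Obp99b stood at 0.32. CG30377 had 41, 627 and 20. Both CG9168 and CG30377 were under 1 RPKM in control and MSL2 RNAi, so their ratios to control depend on the pseudocount. Except for Mtk, the genes of this level were not followed singly with a pseudocount of 1. The gene for the antimicrobial peptide metchnikowin, Mtk, had 49, 125 and 29, few enough that the difference between the knockdowns had an interval of 2.84 to 6.65 around a 4.28-fold value, and Mtk too left the group with a pseudocount of 1. CG34374 (1241, 2716 and 622 reads) and CG13791 are both assigned to RapGAP1 by the current annotation, although they are counted as separate models among the 23.

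The reverse order, low after CLAMP RNAi and high after MSL2 RNAi, was found for 14 genes. None of the 14 was X-linked, beside 1292 of all 7485 genes compared. The X-wide median of −0.33 after MSL2 RNAi relative to control enters this count. The log2 ratios of the 14 between the knockdowns ran from 1.30 to 2.57, and those of the 23 from −5.78 to −1.40. The −5.78 was that of CG9168, at 0.473, 10.8 and 0.0981 RPKM. CG9168, CG30377, CG31974 and CG13791 reached 1 RPKM only in the CLAMP RNAi library and passed the level filter through it. The widths of the 2 ranges were therefore not compared. The 6 averaging 5 RPKM or more were CG3788, fon, CG5080, Cyp6a20, AOX1 and yellow-f2. CG3788 on 2R had 353, 177 and 945 reads, a ratio of 5.37 between the knockdowns (95% interval 4.57 to 6.35). fon on 2L, which encodes Fondue, a protein of the hemolymph clot, had 1341, 661 and 2366 reads, a ratio of 3.60 (3.30 to 3.93). CG5080 had 3262, 2152 and 7010 reads, a ratio of 3.28 (3.12 to 3.44), but it left the group with a pseudocount of 1 and with upper-quartile scaling.

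Enzyme genes made up the rest of this group at this level. AOX1, an aldehyde oxidase gene on 3R, stood at 37.6, 23.3 and 64.7 RPKM. Cyp6a20, a cytochrome P450 gene on 2R, stood at 64.0, 36.1 and 103 RPKM, and yellow-f2, which encodes a dopachrome conversion enzyme of melanin synthesis, stood at 23.2, 14.7 and 37.1 RPKM. Neighbours of related name stood above equality beside each of them, by differing amounts. The cytochrome P450 genes Cyp6a9 and Cyp317a1 beside Cyp6a20 stood at 0.33 and 1.02 between the knockdowns. The gene yellow-f beside yellow-f2 stood at 0.80 and AOX2 beside AOX1 at 0.36. After MSL2 RNAi these neighbours were at 0.33, 0.29, 0.23 and −0.05 relative to control, all short of 1.5-fold. After CLAMP RNAi they were at 0.002, −0.72, −0.57 and −0.41, with only Cyp317a1 past 1.5-fold. Whether reads of similar stretches in such neighbours were shared in the authors' counting was not tested.

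The lower-level members were named after their values were seen. The G protein gamma subunit gene Ggamma30A (232, 92 and 482 reads) and CG6830 (222, 86 and 600) were at least 2-fold from control on both sides. dpr17, which encodes an immunoglobulin-domain protein, had 420, 272 and 1622 reads, with its distance from control mostly on the MSL2 RNAi side. mthl2, a receptor gene of the Methuselah family, had 400, 137 and 678. The receptor tyrosine kinase gene Cad96Ca had 246, 154 and 568. At these levels the ratios depend on the pseudocount, and its effect was not followed gene by gene here.

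The groups were scattered over the chromosomes. The 23 genes comprised 6 on 2L, 4 on 2R, 4 on 3L, 5 on 3R and 4 on the X, or 0.31% of X-linked genes compared beside 0.313% of the genes on the major arms. In the 14 there were 4 on 2L, 2 on 2R, 2 on 3L, 5 on 3R and 1 without an assigned arm, or 0.214% of genes on the major arms. All 23 and 12 of the 14 were annotated as protein-coding, and the others were the snoRNA gene and the unplaced gene CG30456. The median of their mean level was 5.66 and 3.09 RPKM, while 6437 of all 7485 genes compared averaged 5 RPKM or more. Median transcript lengths of 1736 and 2019 bases were near the 1888 of all genes.

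Some adjacent genes differed in the same direction. Neighbours in gene order were read for 35 genes. CG30456, without an arm, and CG34374, which shares its current gene with CG13791, were left out. Of the 70 neighbours, 59 were within 1.5-fold between the knockdowns and 10 were past 1.5-fold in the same direction. The other 1, GstD5 beside GstD7 (0.63 and −1.47), was past it in the opposite direction. Only the pairs CG4970 with CG14929, which share reads, and Gbp1 with CG11400 had both members in the group. Each pair was counted from both sides, so these pairs gave 4 of the 10 and also enter the neighbour median below. Over all genes compared, 92.1% were within 1.5-fold, 3.62% were lower and 4.24% were higher. The median absolute log2 ratio was 0.24 for the neighbours and 0.16 for all genes, and no test of this difference was made.

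The 1.5-fold line falls in a continuous range of values. Just inside it lay CG30377, with its smaller ratio to control at −0.59, and dpr17 at −0.59. Just outside were CG7381, at 0.58 after MSL2 RNAi, and CG15673, at −0.58 after CLAMP RNAi. The gene dmGlut (log2 ratios to control of 0.86 for CLAMP RNAi, −0.57 for MSL2 RNAi) and fax (0.85, −0.56) also stood just short. With a line at 1.25-fold the groups held 69 and 80 genes, of which 14 and 4 were X-linked, beside 1292 of all 7485 genes compared. The X-wide median of −0.33 after MSL2 RNAi relative to control enters these X counts. With a line at 2-fold the groups held 5 and 2 genes.

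Several other large differences between the knockdowns came from 1 side. The autosomal genes with the highest log2 ratios, again at 5 RPKM or more, were the receptor tyrosine kinase gene Wsck (3.43), Lac, which encodes the septate junction protein Lachesin (3.18), Erasp (3.02) and the integrin beta subunit gene Itgbn (2.43), and they were followed by CG3788, fon, CG10939 (1.77) and Clamp itself (1.75). Lac had 10323, 1208 and 11014 reads, so the MSL2 RNAi library was near control. Wsck, Erasp and Itgbn had the same arrangement, with log2 ratios to control after MSL2 RNAi of 0.13, −0.10 and −0.27.

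On the lower side, Agpat2, an acyltransferase gene of phospholipid synthesis, had 788, 1105 and 145 reads, a 7.57-fold difference between the knockdowns (6.36 to 9.06). Here the MSL2 RNAi library stood apart. CG34232 (572, 1880 and 393 reads) and the glutamine synthetase gene Gs1 (820, 2360 and 553) stood apart in the CLAMP RNAi library. After MSL2 RNAi they reached log2 ratios of −0.53 and −0.55 to control and so narrowly missed the opposite-side rule.

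Gene lists were read against all genes compared, of which 3.62% were 1.5-fold or more lower and 4.24% higher in the MSL2 RNAi library than in the CLAMP RNAi library, with a median log2 ratio of 0.05. Cell adhesion genes had members far out on both sides. Of 19 compared, 4 were 1.5-fold lower and 4 higher, with Ama at −4.02, Wsck at 3.43, Lac at 3.18 and Itgbn at 2.43. The list median was −0.03.

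Hemocyte markers, genes of the blood cells that SL2 resembles, were lower after MSL2 RNAi than after CLAMP RNAi at 5 of 19 compared members and higher at 0 by the 1.5-fold rule. Their median log2 ratio was −0.18, and 17 of 19 lay below the autosomal median. NimC4, a receptor for the engulfment of dying cells, had 47, 542 and 53 reads. It reached 1 RPKM only in the CLAMP RNAi library and passed the level filter through it. The engulfment receptor gene drpr had 15005, 20191 and 13020, and the peroxidasin gene Pxn 117456, 311011 and 202789. Nplp2 differed in order, with 65247, 57199 and 33617. The CLAMP RNAi library thus had the highest value for NimC4, drpr and Pxn, with Pxn above control in both knockdowns. The summed RPKM of all 23 listed markers was 7657, 9752 and 7399 in control, CLAMP RNAi and MSL2 RNAi, and the part of this sum in other results was not tested. From control to CLAMP RNAi, the largest rises were those of SPARC (2013 to 3241), Pxn (326 to 860) and Col4a1 (1346 to 1668). Nplp2 (2093.9 to 1828.5), He (40.6 to 22.1), Sr-CI, crq, PPO1 and PPO2 were instead lower after CLAMP RNAi. The crystal cell marker lz had at most 4 reads. In bulk RNA, fewer cells of a type and less RNA per cell cannot be told apart.

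Basement membrane and matrix genes, a list that shares Pxn, SPARC, Ppn, vkg and Col4a1 with the hemocyte markers, had 4 of 14 members 1.5-fold lower and 0 higher, a median of −0.27, and 13 of 14 below the autosomal median. The matrix metalloprotease gene Mmp1 stood at 66.9, 96.8 and 50.8 RPKM, at −0.93 between the knockdowns. Pxn stood at −0.61, SPARC at −0.60 and the X-linked perlecan gene trol at −0.59. The collagen IV gene Col4a1 was close to equal, at −0.02.

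Glycolysis and lactate genes had 3 of 13 members 1.5-fold higher after MSL2 RNAi and 0 lower, with a median of 0.13, or 0.33 for the autosomal members, and 6 of 13 lay below the autosomal median. The lactate dehydrogenase gene Ldh had 17159, 11873 and 33136 reads, a log2 ratio of 1.49. Aldolase Ald1 stood at 0.66, triose phosphate isomerase Tpi at 0.65 and phosphofructokinase Pfk at 0.55. For Ldh, Ald1 and Tpi the control value lay between the knockdowns.

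Transporter genes for monocarboxylates, sugars and amino acids had 3 of 14 members lower and 2 higher, with Mct1 at −2.11, CG13907 at −0.99, out at −0.84 and kar at 0.72. Of 19 ion channel and pump genes, ClC-a was the 1 past 1.5-fold. Among 9 arginine and proline genes, arg was the 1 that was lower and P5cr-2, a pyrroline-5-carboxylate reductase gene, was the 1 that was higher, at 0.65. Lipid and sterol synthesis genes had 2 of 16 lower, Agpat2 at −2.83 and the diacylglycerol acyltransferase gene mdy at −0.77, and 0 higher, with the desaturase gene Desat1 at 0.53.

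Immune genes had 4 of 26 members lower and 2 higher. Vago stood at −2.09, Mtk at −2.03 and the cecropin gene CecA1, with 109, 137 and 54 reads, at −1.30, while the recognition gene GNBP3 stood at 1.34, with 1239, 613 and 1557 reads. Cell death genes had 2 of 12 lower, the death inducer hid at −1.27 and the TNF receptor gene wgn at −0.89. Ecdysone pathway genes had 1 of 13 on each side, the prothoracicotropic hormone gene Ptth at 1.13 and the transcription factor gene Eip74EF at −0.84. In the insulin and TOR list, the insulin-like peptide gene Ilp6 (0.89) was the 1 of 18 past 1.5-fold, and in the JAK-STAT and JNK list the kinase gene slpr (−0.60) was the 1 of 15.

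Housekeeping and chromatin lists had few members past 1.5-fold. No member was 1.5-fold apart among 31 proteasome genes, 71 mitochondrial ribosomal protein genes, 16 heat shock protein genes, 25 cell cycle genes, 13 peroxiredoxin and redox genes, 13 NSL complex and interband genes, 16 GAGA factor and insulator genes or 27 Polycomb and trithorax genes. The lowest Polycomb and trithorax members, nej (−0.50), ph-p (−0.46) and trr (−0.43), are X-linked. Of 82 cytosolic ribosomal protein genes, RpL39 (−0.78) and RpS19b (0.93) were past 1.5-fold. The X-linked housekeeping list, of whose 19 compared members 18 are placed on the X by the current annotation, had a median of −0.35 beside −0.27 for all X-linked genes, with Cdc42 at −0.55, dsh at −0.52 and the clathrin heavy chain gene Chc at −0.47.

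**Figure D5:**
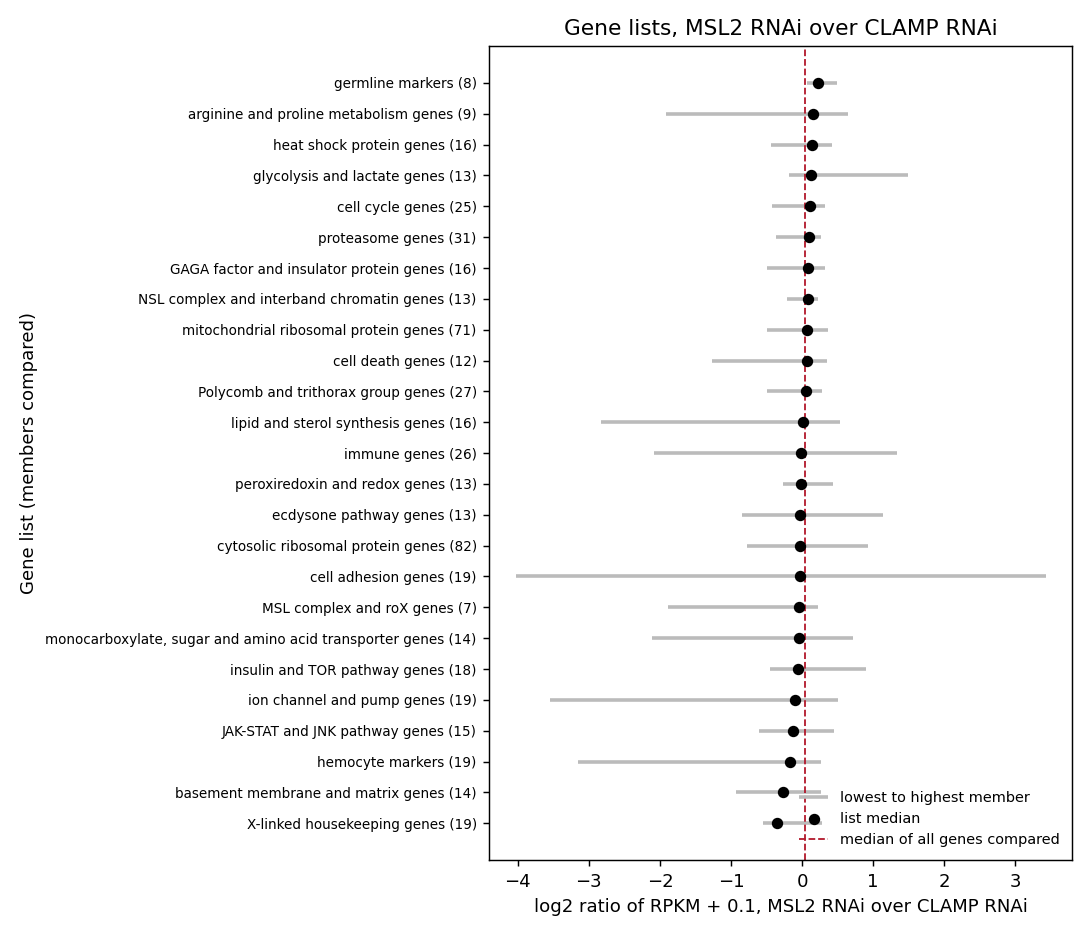
Log2 ratio of RPKM plus 0.1, MSL2 RNAi over CLAMP RNAi, for gene lists with at least 7 members compared, as the list median (point) and the range from lowest to highest member (line), with the median of all genes compared as a dashed line. Medians lie between −0.35 for X-linked housekeeping genes and 0.22 for germline markers, and the widest range is that of cell adhesion genes, from −4.02 to 3.43.

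Markers of other cell types were read in all libraries, and their part in the results was not tested. Germline markers summed to 273, 224 and 263 RPKM in control, CLAMP RNAi and MSL2 RNAi, with 0 of 8 compared members past 1.5-fold and piwi and spn-E at 0.45 and 0.49. The germline marker vas had at most 17 reads. Muscle markers summed to 13.1, 12.8 and 11.3, with Mhc at no more than 17 reads and sls, which encodes a titin-like protein, at −0.90 between the knockdowns. The sum of the fat body markers, 1354, 1674 and 1647, was nearly all Col4a1, with Lsp1alpha at 1 read in control and 0 in the others. That of the neuronal markers, 85.9, 93.1 and 79.7, was mostly Syx1A, with Rdl at no more than 3 reads and the active zone gene brp at 0.68 between the knockdowns.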

How the data were processed

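Messenger RNA of SL2 cells was sequenced in 3 libraries (Illumina TruSeq, per the labels' protocols). Bowtie and build dm3 come from the submitters' processing notes. The sources used here do not give the counting tool, its annotation or its strand setting. Each of the authors' files holds, for 22353 transcripts, an RPKM value, a whole read count, a length and the library total. The deposited RPKM values equal the deposited count divided by length and total. Counts of all transcripts sum to 141207140 for CLAMP RNAi, since shared exons count for every isoform; the chosen transcripts hold 95.0% to 95.6% of each total.

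From these, 1 transcript per gene was taken (most reads on average over the 3 libraries). Genes were named from the Release 6 plus ISO1 MT annotation: 13783 matched by locus tag, 749 by a unique synonym, and 607 stayed unmatched. Compared were 1292 X-linked genes, 6062 on the major arms, 57 on chromosome 4 and 74 without an arm. A log2 ratio with a pseudocount of 0.1 understates the change of low genes. Although counts were present, no count model was fitted with 1 library per group, so fixed folds of 2 and 1.5 replaced tests. Read ratios were scaled by library totals. Calculations used Python 3.11.15, pandas 2.3.3 and SciPy 1.17.1, and were tested on simulated data.

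The text names the RNAi targets, the MSL complex and roX genes, opposite-side genes averaging 5 RPKM or more, at that level the 8 lowest and 8 highest autosomal and the 6 lowest and 6 highest X-linked genes, and up to 4 members of largest ratio per list. Other genes were chosen after their values were seen. The members and lists were chosen with earlier results of these data known. The planned search of promoters for GA repeats was not run, and the 12 ChIP samples were not analysed here.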

Additional observations from a re-analysis of the deposited data

How the results depend on the processing

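The X minus autosome median of −0.35 kept its sign in all alternatives and moved beyond its interval over genes with a pseudocount of 1 (−0.33) and without a level filter (−0.28); the chromosome 4 difference of −0.07 moved so only without the filter (−0.030). The 83 lower and 124 higher genes at 2-fold became 271 and 317 at 1.5-fold, 185 and 303 without the filter, and 46 and 43 with a floor of 5 RPKM, and the higher ones numbered 68 with a pseudocount of 1. The opposite-side groups of 23 and 14 became 5 and 2 at 2-fold from control, 10 and 7 with a pseudocount of 1, and 13 and 6 with a floor of 5 RPKM. The 14 became 36 without the filter, and the 23 became 14 with transcripts of at least 1000 bases. Only 20 opposite-side genes were followed singly, those averaging 5 RPKM or more and Mtk. Of these, CG32030, CG4970, CG5080, Gbp1, Mtk and arg left with a pseudocount of 1, and CG5080 left also with upper-quartile scaling. With 1 gene model per current gene, a choice made after seeing the data that left out 141 models, the groups held 21 and 14. A pseudocount of 0.01, the longest transcript per gene, upper-quartile scaling and a filter on the 2 knockdown libraries alone changed none of these counts by more than 1.5 times. No named gene at least 2-fold apart changed sign in these alternatives, and 26 of the 136 named genes moved beyond their counting interval with a pseudocount of 1. Low counts limit genes such as Mtk and CG13791. No paired analysis was possible because each mRNA group has 1 library.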
